A study of Rattus norvegicus with 28 samples.

Results

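Brain gene expression of post-estrus rats was compared with that of estrus rats in the inbred strains BN-Lx/Cub (BN-Lx below) and SHR/OlaIpcv (SHR below). The comparison took every post-estrus and every estrus female of the series, 16 of its 28 libraries, with strain as a block. There were 8 libraries of each stage, 4 per strain. The remaining libraries came from pre-estrus females and from males. BN-Lx derives from the Brown Norway rat and SHR is the spontaneously hypertensive rat. The series was designed to examine sex, cycle stage and genotype together.

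The 4 groups were BN-Lx females in estrus, BN-Lx females in post-estrus, SHR females in estrus and SHR females in post-estrus. No treatment or engineered allele separates them, and no age is given in the sample labels. The protocol in the labels describes RNA from whole brains of alcohol-naive rats and speaks of males, while the labels of these 16 samples name females, and the sample labels were used. The labels call the samples biological replicates. They do not state how the stage was determined, or whether a library holds RNA of 1 animal or a pool. P-values therefore measure the spread between these samples.

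The estrous cycle is the ovarian cycle of the female rodent. Estradiol and progesterone rise before ovulation, and estrus, the time of mating, is followed by a stage in which the corpora lutea form. Both hormones cross into the brain and act through nuclear receptors that change transcription, best known in the hypothalamus and the hippocampus. A whole-brain library averages such regions with all others. In bulk tissue, fewer cells of a type and less RNA per cell cannot be told apart.

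The measured unit was the expected count per Ensembl gene, an RSEM estimate that splits ambiguous reads among the genes they match. Libraries held between 43410499 and 90667163 expected counts, spike-in RNAs included, and the spike-ins took 1.46% to 6.05% of them. Libraries had 16607 to 20000 genes with a count, the fewest in BN-Lx post-estrus replicate 5. The deposited tables give identifiers without gene names, and 0 identifiers could be matched to a symbol. Genes are therefore named by identifier, the brain markers and hormone receptor genes could not be looked up, and the labelled tissue was not checked against its markers.

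A single RNA, ENSRNOG00000043866, took the largest part of every library, and it is described first because the comparison was repeated with its share as a term. In BN-Lx estrus it made up 34.1%, 25.8%, 22.3% and 19.7% of the gene counts in replicates 2, 4, 8 and 9. In SHR estrus it made up 26.8%, 22.7%, 27.3% and 22% in replicates 5, 6, 9 and 11. The BN-Lx libraries were more spread than the SHR libraries at this stage. The post-estrus shares were 26.7%, 22.5%, 35.9% and 33.8% in BN-Lx replicates 3, 4, 5 and 6. They were 25.1%, 26.1%, 23.3% and 13.2% in SHR replicates 6, 8, 12 and 13. The highest and the lowest share of all 16 libraries both belonged to post-estrus libraries, and the ranges of the 2 stages overlapped in each strain. On the authors' TPM scale, which divides by transcript length, it ran from 46100 to 160000.

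The mean share was 25.1% ± 4.52 (SD, n = 8) in estrus and 25.8% ± 7.01 (SD, n = 8) in post-estrus. The stage difference in log2 share was 0.01, with a two-sided exact permutation p of 0.966 over 4900 arrangements of the stages within strains. In BN-Lx the mean was 25.5% ± 6.3 in estrus and 29.7% ± 6.23 in post-estrus, and in SHR it was 24.7% ± 2.75 and 21.9% ± 5.94 (SD, n = 4 each). Neither difference exceeded the spread, with exact permutation p of 0.314 and 0.543, where the smallest that 4 against 4 libraries allow is 0.0286. The difference between these strain-specific changes was -0.44 on the log2 scale (exact permutation p = 0.196, adjusted p = 0.553 over 7 library measures). Across the same 7 measures, which include depth, spike-in share and genes detected, the adjusted p for stage was 0.966 in each case. The 8 most abundant RNAs together differed by 4 percentage points in the BN-Lx libraries and by -2.06 points in the SHR libraries, as a difference of post-estrus from estrus, and this strain difference had an exact permutation p of 0.0408 and an adjusted p of 0.286.

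**Figure D1:**
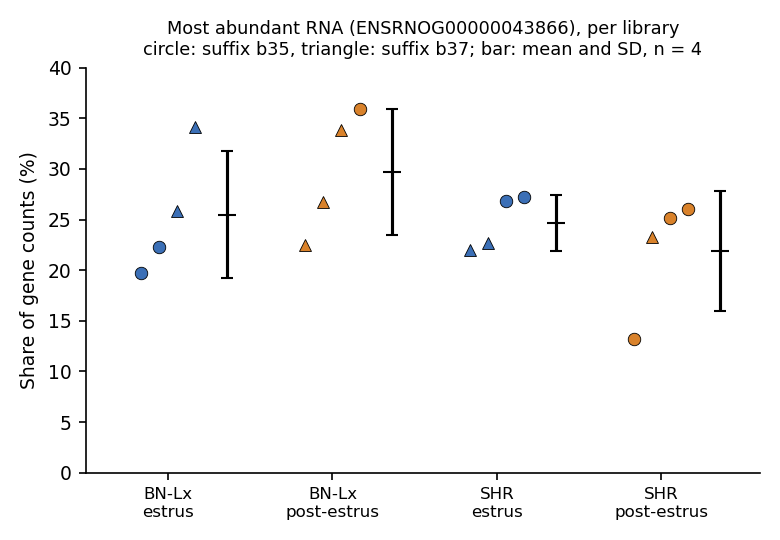
Share of the gene counts taken by ENSRNOG00000043866 (y axis, %) in each library of the 4 groups (x axis). Points are libraries, circles and triangles are the suffixes b35 and b37 of the sample description, and bars are mean and SD of 4 libraries. Shares run from 13.2% to 35.9%, both in post-estrus, and the stages overlap in each strain.

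No gene passed the test between post-estrus and estrus. Of 17086 genes kept, edgeR's quasi-likelihood test called 0 (0%) at a Benjamini-Hochberg adjusted p under 0.05, with the smallest adjusted p at 0.86. At an unadjusted p under 0.05 there were 136 genes (0.796%), 90 higher and 46 lower in post-estrus, where 5% would be expected without any difference. The median log2 fold change over all genes was 0.005. With the log2 share of ENSRNOG00000043866 as a term, edgeR again called 0 genes (0%), the smallest adjusted p was 0.62 and 241 genes (1.41%) had an unadjusted p under 0.05, 137 higher and 104 lower. The 2 fits had 122 of these genes in common, which was 89.7% of the first set and 50.6% of the second, and all 122 had the same sign in both. The number of calls stayed at 0 whichever library was left out. The number at an unadjusted p under 0.05 rose to 227 without BN-Lx post-estrus replicate 4 in the first fit, and to 392 without it and 473 without SHR post-estrus replicate 13 in the second.

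Other tools made few calls, all on genes named below. DESeq2 called 2 genes without the share and 3 with it, and had 184 and 287 genes at an unadjusted p under 0.05. The limma voom fit with quality weights called 1 gene in either case, and had 401 and 561 genes at an unadjusted p under 0.05. The sample descriptions end in b35 or b37, whose meaning is not stated, and each stage had 4 libraries of each suffix. Within the suffixes edgeR called 0 genes in either without the share, and 1 in b35 and 2 in b37 with it, each at 0 in some of the libraries.

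The precision of the comparison bounds what could have been missed. Among the 13992 genes that averaged 1 CPM or more (counts per TMM-scaled library size), the 95% confidence interval of the stage difference lay within a 2-fold change either way for 96.1% and within a 1.5-fold change for 84.3%. With the share as a term these figures were 97.1% and 90.9%. The median standard error of these genes fell from 0.13 to 0.095 on the log2 scale when the share was added. Genes under 1 CPM were much less precisely measured, with a median standard error of 0.47, and only 30.9% of them had an interval within a 2-fold change. For the weakly expressed genes a change of 2-fold was thus mostly not excluded at this depth and spread.

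**Figure D2:**
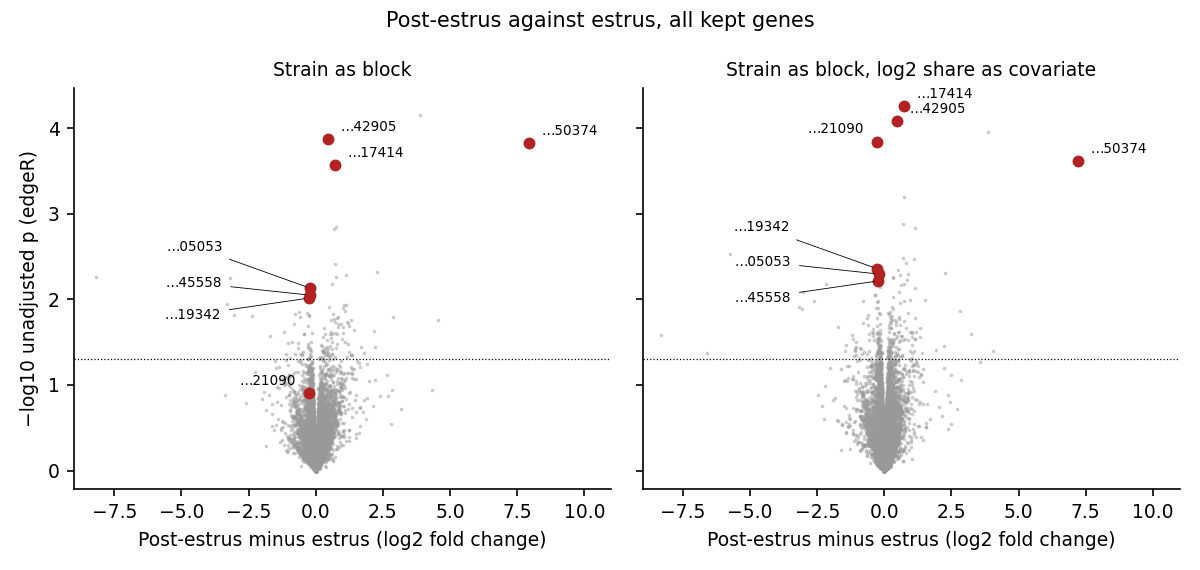
Log2 fold change of post-estrus against estrus (x axis) and −log10 of the unadjusted edgeR p (y axis) for each of the 17086 genes, without the share (left) and with it (right). Red points are the 7 named genes, labelled by the last 5 digits of their identifiers, and the dotted line is an unadjusted p of 0.05. No gene passed an adjusted p of 0.05 in either panel.

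The genes named here are those of the smallest unadjusted p in each direction that averaged 1 CPM or more, 2 per direction and fit. ENSRNOG00000042905 had the smallest p of the higher genes without the share. It had 7.68, 9.37, 8.99 and 8.75 CPM in the BN-Lx estrus libraries and 12.5, 11.0, 10.5 and 12.8 CPM in the BN-Lx post-estrus libraries, in the order of the replicates above. In SHR it had 5.34, 5.68, 7.4 and 7.03 CPM in estrus and 9.64, 9.59, 7.42 and 8.91 CPM in post-estrus. Within each strain every post-estrus library of this gene lay above every estrus library, in SHR by a margin of 7.42 over 7.4 CPM. It was the only gene of the 13992 whose stages did not overlap in either strain with a shared direction, a share of 0.00715%. Without any stage difference, the stages of a strain separate completely with a chance of 0.0286 per gene. Some such genes are therefore expected by chance among 13992, and the separation is no separate support for a stage difference. The log2 fold change of ENSRNOG00000042905 was 0.46 ± 0.092 (SE), with a 95% interval from 0.26 to 0.65. It was 0.44 in BN-Lx and 0.48 in SHR. The edgeR p was 0.00013 before and 0.86 after adjustment, and 8.3e-05 and 0.62 with the share as a term, while DESeq2 gave adjusted p of 0.020 and 0.017. The authors' model gives this gene 1 transcript with a length of 1638 bases. Its expected counts were not whole numbers in 16 of 16 libraries, so part of its reads was divided with other genes and its level is uncertain. Within the b35 libraries alone the log2 fold change was 0.45, and within b37 it was 0.42. Both are parts of the libraries from which the gene was picked.

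ENSRNOG00000017414 had the smallest p of the higher genes once the share was included. Its BN-Lx libraries held 0.640, 0.872, 1.03 and 1.38 CPM in estrus and 1.55, 1.46, 1.35 and 1.30 CPM in post-estrus. Its SHR libraries held 3.37, 3.71, 4.00 and 4.23 CPM in estrus and 6.13, 9.14, 5.39 and 7.40 CPM in post-estrus. The stages separated in SHR, and overlapped in BN-Lx, where BN-Lx estrus replicate 9 lay within the post-estrus range. The log2 fold change was 0.71 ± 0.15 (SE; 95% interval 0.38 to 1.03), with 0.54 in BN-Lx and 0.87 in SHR. The edgeR adjusted p was 1 without and 0.62 with the share, and DESeq2 gave 0.043 and 0.017. The stage by strain interaction of this gene had an unadjusted edgeR p of 0.28 (adjusted p = 1). Its expected counts were whole in every library. The log2 fold change was 0.74 within b35 and 0.75 within b37, both parts of the libraries from which the gene was picked.

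ENSRNOG00000050374 had the largest fold change of the named genes and the most uneven counts. After rounding, its estrus libraries held 11 counts in all, 2 in BN-Lx replicate 8 and 9 in SHR replicate 6, and the other 6 held 0. The BN-Lx post-estrus libraries held 371, 302, 0 and 0 counts, and the SHR post-estrus libraries 0, 264, 261 and 2274. The post-estrus total of 3472 counts came from 5 of 8 libraries, with most of it in SHR replicate 13, the library with the lowest share of the most abundant RNA. The fitted log2 fold change was 7.92 ± 1.6 (SE), with an edgeR p of 0.00015 and an adjusted p of 0.86. This value leaned on single libraries, at 9.57 when SHR estrus replicate 6 was left out and 6.8 when SHR post-estrus replicate 13 was, and limma gave 5.87 with an adjusted p of 1. With the share it was 7.2 in edgeR, and 4.8 (adjusted p = 1) when the numeric code of the sample description was a further term. Codes found at 1 stage only did not directly inform this last value. The mean of the gene was 0.0237 CPM in estrus and 6.48 CPM in post-estrus, so it met the minimum of 1 CPM through post-estrus alone. Outside the comparison, 3 of 4 pre-estrus libraries of each strain had at least 100 counts, up to 1181 in BN-Lx and 684 in SHR, while the male libraries had 29 at most. Before rounding, its expected counts were above 0 in 8 libraries of the comparison, 1 of which rounds to 0, and not whole in any of them, so its reads too were divided with other genes.

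ENSRNOG00000017749, which the rule did not pick because its mean lay under 1 CPM, was named after its values were seen, as the gene with the smallest unadjusted p of all and the single limma call. It had 4 counts in the 8 estrus libraries, 3 in SHR replicate 6 and 1 in SHR replicate 9. The SHR post-estrus libraries had 21, 16, 17 and 16 counts, and the BN-Lx post-estrus libraries 6, 3, 0 and 1. The 4 SHR post-estrus libraries were alike and all above the SHR estrus libraries, and the BN-Lx counts were near 0 at both stages. Only these 4 libraries reached the count minimum of 10, so the gene passed the filter through that group alone. Its small p is therefore no separate support for a stage difference. The edgeR p was 6.98e-05 (adjusted p = 0.86), and limma gave a log2 fold change of 3.67 with an adjusted p of 0.013, and 0.041 with the share.

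The lower genes had smaller differences. ENSRNOG00000005053 had 13.7, 15.9, 17.0 and 14.8 CPM in BN-Lx estrus and 14.3, 14.8, 13.0 and 11.9 in BN-Lx post-estrus. In SHR it had 18.0, 16.3, 15.9 and 15.6 CPM in estrus and 14.6, 14, 13.4 and 13.9 in post-estrus. All SHR post-estrus values of this gene lay below all SHR estrus values, and the BN-Lx values overlapped. Its log2 fold change was -0.21 ± 0.069 (SE), with an edgeR adjusted p of 1.

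ENSRNOG00000045558 had 18.7, 14.8, 18.6 and 17.4 CPM in BN-Lx estrus and 13.2, 15.6, 13.9 and 15.2 in BN-Lx post-estrus. In SHR it had 17.1, 17.4, 17.9 and 19.4 CPM in estrus and 16.2, 16.1, 17.4 and 13.8 in post-estrus. Its stages overlapped in both strains. Its log2 fold change was -0.22 ± 0.073 (SE), with an edgeR adjusted p of 1.

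ENSRNOG00000019342, the second of the lower genes with the share as a term, had 14.4, 12.9, 15.5 and 12.6 CPM in SHR estrus and 12.0, 10.2, 10.8 and 9.20 in SHR post-estrus. In BN-Lx it had 9.86, 11.9, 9.06 and 9.36 CPM in estrus and 8.03, 10.2, 9.38 and 8.81 in post-estrus. Its SHR stages did not overlap, while its BN-Lx stages did. With the share its log2 fold change was -0.27 ± 0.082 (SE), with an edgeR adjusted p of 1.

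ENSRNOG00000021090 moved with the share more than with stage. It had 46.8, 63.2, 61.8 and 80.8 CPM in BN-Lx estrus and 47.6, 61.1, 35.8 and 34.8 in BN-Lx post-estrus. In SHR it had 40.1, 49.7, 41.4 and 42.8 CPM in estrus and 32.6, 35, 40.5 and 62.4 in post-estrus. The highest SHR value was that of post-estrus replicate 13, the library with the lowest share, and the lowest BN-Lx post-estrus values were those of replicates 5 and 6, with the highest shares of that group. Per log2 unit of share this gene was lower by a log2 change of -0.94 (edgeR adjusted p = 2.2e-06). The stage difference was -0.26 ± 0.16 (SE) without the share, with an edgeR adjusted p of 1. With the share it was -0.28 ± 0.059 (SE; 95% interval -0.41 to -0.16), with an edgeR adjusted p of 0.62. The estimate was thus similar in both fits, and its standard error was lower with the share. DESeq2 gave an adjusted p of 0.025 with the share.

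**Figure D3:**
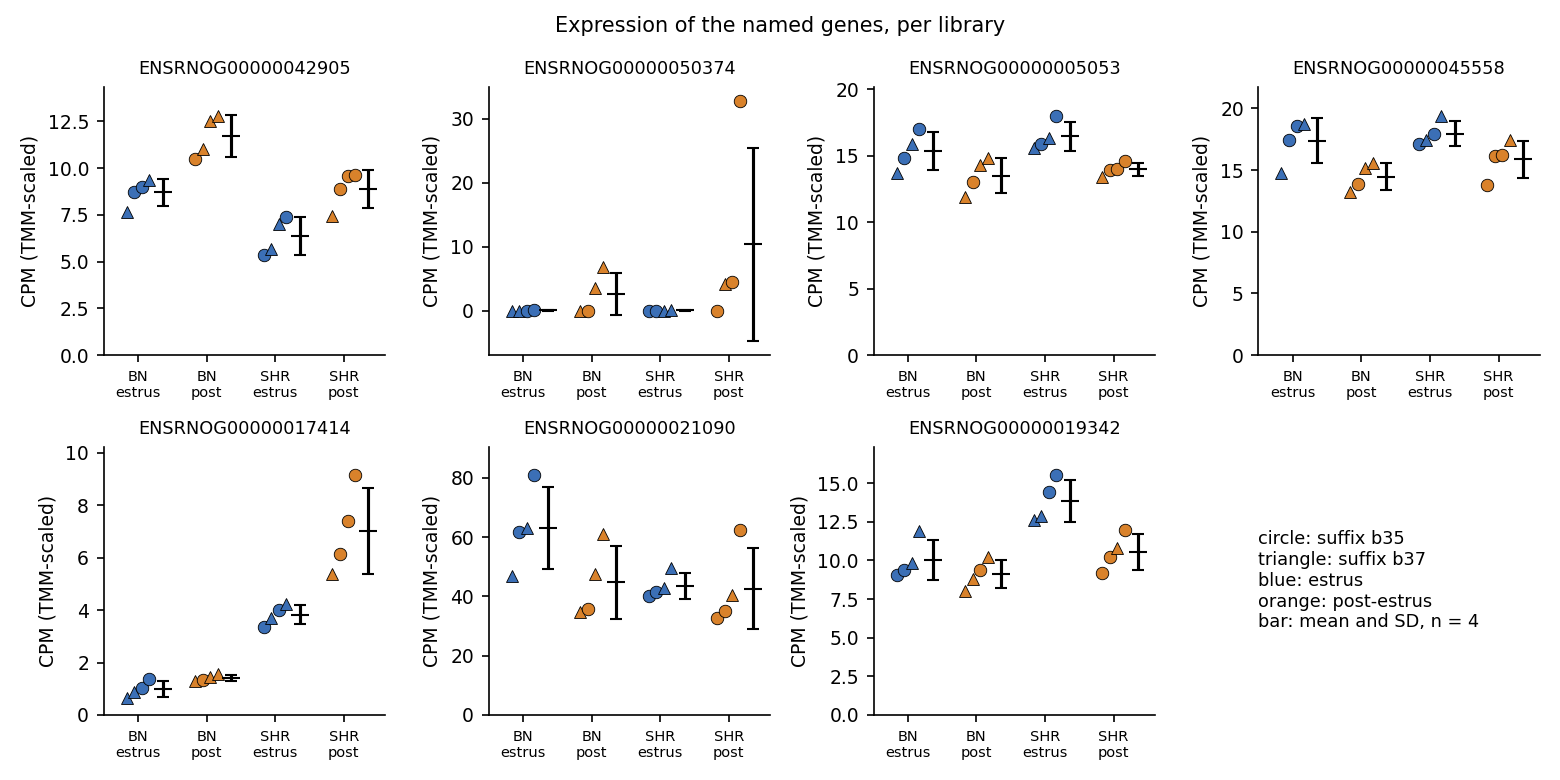
CPM (y axis, TMM-scaled) of the 7 named genes in each library of the 4 groups (x axis), with mean and SD of 4 libraries as bars, circles for the suffix b35 and triangles for b37. For ENSRNOG00000042905 all post-estrus libraries lie above the estrus libraries of their strain, and for ENSRNOG00000050374 a single SHR post-estrus library reaches 32.8 CPM.

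The share of ENSRNOG00000043866 was associated with far more genes than stage was. In the fit with stage, strain and share, edgeR called 8352 genes (48.9%) for the share at an adjusted p under 0.05, 4081 higher and 4271 lower as it rose. The median size of these changes was 0.72 on the log2 scale per log2 unit of share, and 2339 of them exceeded a 2-fold change per unit. The called part grew with expression, from 15.6% of genes under 1 CPM to 65.2% of genes over 64 CPM. It was 57.3% among genes with a length over 3000 bases and 6.56% (17 of 259, all higher) among those of at most 200 bases. Yet the median log2 change per log2 unit of share was 0.86 in these short genes, 0.07 over 3000 bases and 0.01 over all genes. The short genes were less precisely measured, with a median standard error for stage of 0.5 in this fit, against 0.093 over 3000 bases. The called part therefore does not rank these classes by the size of the association. Within the suffixes 6764 genes were called in b35 and 3321 in b37, and 3094 were called with the numeric code of the sample description as a term. These fits had fewer libraries or more terms, and several codes held a single library. A lower number of calls there does not by itself mean a weaker association. ENSRNOG00000043866 itself was among the 8352 called genes by construction, and the share and the gene counts come from the same libraries. With the 8 most abundant RNAs, this RNA included, removed from the counts, 8319 genes were called.

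The same share tracked the main axis of variation between the libraries. Once each strain was centred, 30.3% of the variance in log2 CPM lay on the first principal component. Its correlation with log2 share was r = 0.853 over the 8 BN-Lx libraries (permutation p = 0.00047, adjusted p = 0.00094; Spearman's rho = 0.857, permutation p = 0.011). Over the 8 SHR libraries it was r = 0.933 (permutation p = 0.0013; rho = 0.881, permutation p = 0.0072). Without the 2 libraries farthest from the median share, r was 0.899 in BN-Lx and 0.89 in SHR. Both measures come from the counts of the same libraries. The ends of the axis were BN-Lx post-estrus replicate 5 at 107 and SHR post-estrus replicate 13 at -57.9. The component itself did not differ by stage beyond the spread (exact permutation p = 0.804, adjusted p = 0.966). What sets the share was not tested.

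**Figure D4:**
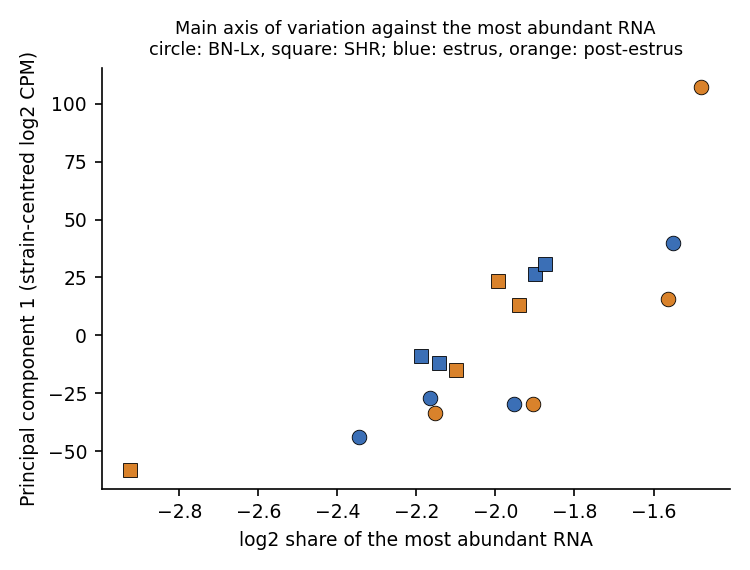
First principal component of strain-centred log2 CPM (y axis) against the log2 share of ENSRNOG00000043866 (x axis), one point per library, with circles for BN-Lx, squares for SHR, blue for estrus and orange for post-estrus. Both stages spread along the component within each strain, and its ends are post-estrus libraries, 107 in BN-Lx and -57.9 in SHR. The component was centred by strain and the share was not, so the strains are offset from each other.

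The strains were then tested for different responses to stage. The stage by strain interaction had 0 genes called by edgeR (0%), with 250 (1.46%) at an unadjusted p under 0.05, and 450 with the share as a term. DESeq2 called 6 and limma 0, with 323 and 795 at an unadjusted p under 0.05. Each of the 6 was at 0 counts in 5 to 9 of the 16 libraries, with fitted log2 values as far out as 25.94 and -25.06. Fitted alone, BN-Lx had 0 genes called of 16506 (0%) and 66 at an unadjusted p under 0.05. SHR had 0 of 16412 (0%) and 321, with the smallest adjusted p at 0.41. DESeq2 called 1 gene in SHR, also among those 6, with a mean of 17.8 counts and 0 in 6 of the 16 libraries. These counts leaned on single libraries. Leaving out BN-Lx estrus replicate 2 moved the interaction to 1291 genes at an unadjusted p under 0.05 and BN-Lx to 441. Without BN-Lx post-estrus replicate 3 or 4 the interaction had 457 and 459 and BN-Lx 110 and 159, and without SHR post-estrus replicate 13 the interaction had 149. BN-Lx had 32 without estrus replicate 8, and 1 gene called without estrus replicate 9. SHR had 544 without estrus replicate 6 and 207 without post-estrus replicate 12, and 718 with 2 genes called without post-estrus replicate 6. The BN-Lx gene was at 0 counts in 6 of the 16 libraries, and the 2 SHR genes in 7 and 8. The suffixes were unequal in post-estrus, with 3 of 4 libraries b37 in BN-Lx and b35 in SHR. Within b35 alone BN-Lx post-estrus was 1 library, replicate 5, with the highest share and the fewest genes with a count of the 16 libraries. Within b37 alone SHR post-estrus was 1 library, replicate 12. An interaction within either suffix rests on that library, so no response of the strains is read from it.

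Among the genes of at least 1 CPM, 55 (0.393%) had stages that did not overlap in BN-Lx, 17 higher and 38 lower in post-estrus. In SHR there were 250 (1.79%), 103 higher and 147 lower. Both percentages lay below the chance of 0.0286 that the stages of a strain separate without any stage difference. Only ENSRNOG00000042905 was in both sets with the same direction, 1 gene was in both with opposite directions, and 0 genes separated all 8 post-estrus from all 8 estrus libraries.

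Over 13934 genes the stage differences of the strains, which share no library, ran in opposite directions more often than not. Pearson's r across genes was -0.232, Spearman's rho was -0.36, and 34.5% of the genes had the same sign. With the share as a term the values were -0.056, -0.071 and 45.8%. Genes within a library are not independent replicates, and these correlations are a description. The genes that rose with the share were higher in post-estrus in 83.4% of cases in BN-Lx and 17.9% in SHR. Those that fell with the share were higher in 16.7% and 88.5%. The mean share itself was higher in post-estrus in BN-Lx and lower in SHR, within its spread, as given above. These genes were selected by their association with the share in the same libraries. Their directions therefore largely follow from the selection and are no separate evidence. No test was made of these shares of genes.

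**Figure D5:**
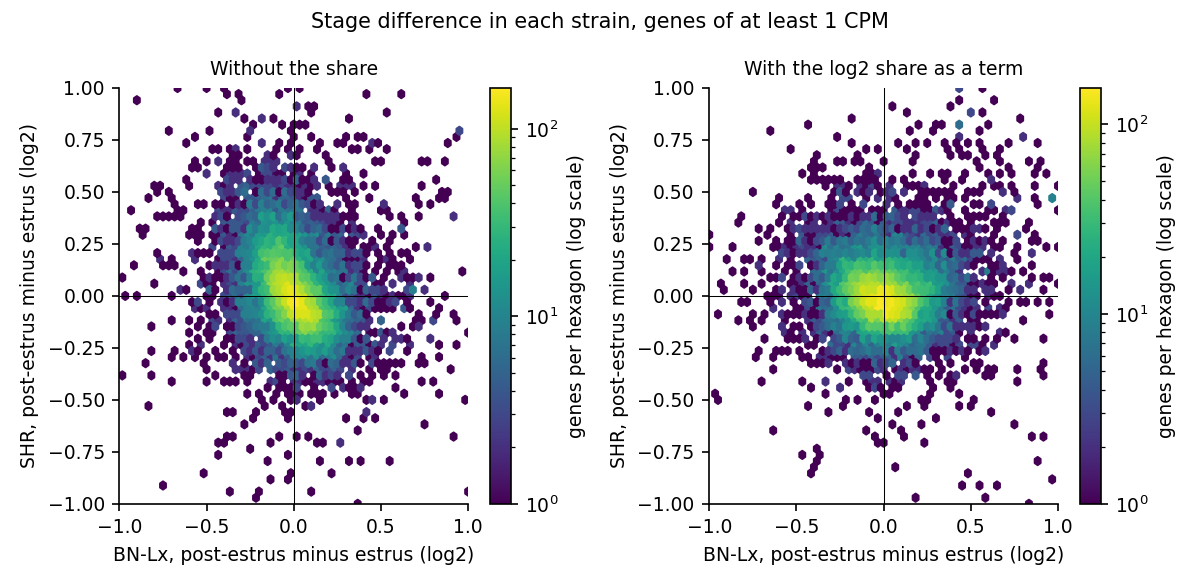
Log2 fold change of post-estrus against estrus in BN-Lx (x axis) and in SHR (y axis) for genes of at least 1 CPM, without the share (left) and with it (right), as hexagons coloured by the number of genes on a log scale. Axes run from -1 to 1. Outside them in at least 1 strain lay 99 and 131 genes, counted also where a gene had a value in only 1 strain. Over the 13934 genes with values in both strains, the tilt of the left cloud (r = -0.232) is nearly gone on the right (r = -0.056).

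Genes of at most 200 bases in the authors' model mostly had positive stage differences. This class was looked at after its values were seen, and no test was made of it. Of 259 such genes kept, 219 (84.6%) had a positive stage difference, against 52.5% of all genes, and 201 (77.6%) with the share as a term. Their median log2 difference was 0.28, and 0.19 with the share, where all genes had 0.005 and 0.003. The strains differed in its size, with 206 of 230 higher and a median of 0.48 in BN-Lx, and 129 of 208 higher and a median of 0.11 in SHR. None of the 259 was called by edgeR, 4 had an unadjusted p under 0.05, and the median standard error was 0.49.

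The libraries showed how uneven the short genes were. The median log2 deviation of the short genes from their mean over the 16 libraries was 0.05, -1.09, 0.73 and 0.90 in the BN-Lx estrus libraries and 0.45, 0.68, 1.42 and 0.30 in the BN-Lx post-estrus libraries. It was 0.57, -0.32, -0.69 and -0.67 in the SHR estrus libraries and 0.15, 0.66, -0.63 and -1.75 in the SHR post-estrus libraries. The stages overlapped in both strains, and the lowest BN-Lx value was 1 estrus library, replicate 4. The highest and lowest of the 16 values were those of the libraries with the highest and lowest share of the most abundant RNA, BN-Lx post-estrus replicate 5 and SHR post-estrus replicate 13.

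Use of alternative transcripts was compared through the mean transcript length that RSEM gives per gene and library, which shifts when the mix of long and short transcripts of a gene shifts. This comparison was added after the data were seen. Of 4186 genes with more than 1 transcript and at least 10 counts in every library, limma called 0 between the stages, with 86 at an unadjusted p under 0.05, and 107 with the share as a term. The smallest adjusted p was 1. The median size of the stage difference in log2 length was 0.006, and 98.8% of the genes differed by less than 10% in length.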

How the data were processed

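RNA-seq of 28 rat brain samples was used, of which the 16 post-estrus and estrus libraries entered the comparison. The submitters' processing notes name cutadapt and RSEM without versions. For the aligner, the genome build and the gene models, the answer is not given in the sources used here. In the deposited files are expected counts per gene, with no normalization, the authors' TPM values and the authors' mean transcript lengths. TPM values were used for description only, and lengths for size classes and transcript use. Of all deposited expected counts of the 16 libraries, zeros and spike-ins included, 88.4% were exactly whole. Of the 17086 genes tested, 12283 (71.9%) were whole in every library. All were rounded for the tests. The deposited series matrix and the per-sample files differed by at most 0.5. The 92 spike-in rows entered neither the tests nor the library sizes.

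Of 32623 gene rows, 17086 were kept by filterByExpr of edgeR (count minimum 10, with the 4 groups of strain and stage). TMM factors scaled the libraries, and CPM values use them. Stage was tested in an edgeR 4.0.16 quasi-likelihood fit (robust, R 4.3.3) with strain as a block, then with the log2 share of ENSRNOG00000043866 in the gene counts as a further term, which left 13 and 12 residual degrees of freedom. Benjamini-Hochberg adjustment covered all kept genes, and calls required an adjusted p under 0.05. The F statistic gave approximate standard errors. DESeq2 1.42.0 and limma 3.58.1 were alternatives. The calculation was tested on simulated data. For principal components, log2 CPM was computed with 2 as prior count. Library measures were compared by exact permutation within strains.

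The comparison and its gene lists were chosen with earlier results of these data known. Genes were to be named by largest change among called genes, filled by smallest unadjusted p in each direction where the mean was 1 CPM or more. With 0 called and 0 identifiers matched to a symbol, 2 per direction and fit were named by identifier. The 33 gene lists (718 entries) matched 0 rows and were not tested. Pairs of libraries of a group had a chi-square per degree of freedom of 30.4 to 671 over 24 pairs, far more than sampling noise gives between copies of 1 library. In every library 107 rows (searched above 1000 counts) repeated the values of another row, and these were not named.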

Additional observations from a re-analysis of the deposited data

Results flagged for a closer look

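For the 7 genes named by the rule and 7 library measures, 56 groups of 4 libraries were searched for a library far from the rest of its group. Chance gives such a library in about 1 in 20 groups of normally distributed values. Such a library was found in 3 groups, all of ENSRNOG00000050374. In BN-Lx estrus, replicate 8 had 0.0317 CPM and the others 0. In SHR estrus, replicate 6 had 0.158 CPM and the others 0. Where the others are all at 0, any count above 0 is flagged, so the rate of 1 in 20 does not apply to these estrus groups. In SHR post-estrus, replicate 13 had 32.8 CPM and the others between 0 and 4.54.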

How the results depend on the processing

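The stage comparison kept 0 calls with edgeR under RLE size factors, no filter, a term for the suffix, all 28 libraries in the fit, and without the 8 most abundant RNAs. DESeq2 called 2 genes, 3 with the share and 6 for the interaction, and limma 1 with and without the share. Those 6 were each at 0 counts in 5 to 9 of the 16 libraries. With the share, b35 libraries alone gave 1 call, b37 libraries 2 and a term for the numeric code of the description 1. For the interaction b35 gave 39 and b37 1. The genes called for the share numbered 3321 in b37 alone and 3094 with the numeric code, fits with fewer libraries or more terms, and 7354 to 8498 when 1 library was left out. Leaving out 1 library gave 0 to 1 calls within BN-Lx and 0 to 2 within SHR, where DESeq2 called 1. The stage difference in log2 share, near 0, was 0.23 in BN-Lx and -0.21 in SHR alone, 0.19 in b35 and -0.03 in b37 alone, and ran from -0.05 to 0.12 when 1 library was left out. Leaving out BN-Lx post-estrus replicate 5 and SHR post-estrus replicate 13 together, chosen after seeing the data, gave 0 calls in both stage fits and 7911 for the share. The cause of these differences was not tested. None of the 7 genes named by the rule changed sign under any alternative run. They were picked by small p in these same libraries, so a kept sign is no independent support. No paired analysis was possible because the labels pair no estrus sample with a post-estrus sample. The stages of a strain share only 1 replicate number, and the libraries with that number differ in the numeric code of the description. Of the length and CPM classes, intervals without the share were widest in genes of at most 200 bases (18.9% within a 2-fold change) and genes under 1 CPM (30.9%).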
